A study of Mus musculus with 7 samples.

Results

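The free fatty acid receptors are a family of cell surface receptors that bind fatty acids released from food, fat or gut bacteria. The family was defined by gene symbol as Ffar1, Ffar2, Ffar3 and Ffar4, and all 4 genes were found among the 27138 features of the table, each with enough counts to be among the 16910 features tested. Ffar2 was picked because its read counts were lower after deletion of a long non-coding RNA, and the others were taken as the rest of its family, so the differences between the groups below are a description and no test of them is given. The data are RNA sequencing of the whole pancreas of mouse embryos at E15.5, with 4 WT and 3 cKO libraries from separate animals. WT embryos were mLINC00673 fl/fl, meaning that both copies of the long non-coding RNA gene 2610035D17Rik (the mouse counterpart of human LINC00673) were floxed, and they had no Cre. The cKO embryos had the same floxed alleles together with Pdx1-Cre, which is active in the pancreatic epithelium and not in its mesenchyme, vessels or nerves. The floxed alleles were therefore common to both groups, Cre was present in cKO only, and effects of Cre and of the deletion cannot be told apart. Because whole organs were sequenced, fewer cells of a type and less RNA per cell cannot be told apart either.

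All 4 receptors are seven-transmembrane proteins that signal through heterotrimeric G proteins. Ffar2 and Ffar3 bind short-chain acids such as acetate, propionate and butyrate. Ffar2 couples to both inhibitory and Gq proteins and is known from neutrophils, adipocytes, enteroendocrine cells and beta cells, whereas Ffar3 couples to inhibitory G proteins and is known from sympathetic ganglia and enteroendocrine cells. Ffar1 and Ffar4 bind medium- and long-chain fatty acids. In the adult islet, Ffar1 is the beta cell receptor through which fatty acids raise glucose-stimulated insulin release, and Ffar4 is known from delta cells.

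The targeted transcript 2610035D17Rik had 7.93 to 9.08 CPM in the WT libraries and 2.01 to 3.38 CPM in the cKO libraries. CPM are counts per 1e+06 of a library's counts over the tested features, with edgeR's TMM scaling between libraries. Library totals were 14883918 to 17767373 counts. Markers of the pancreas were abundant: the 15 acinar genes summed to 45011 CPM or more in each library and the 15 beta cell genes to 1277 CPM or more. Single libraries stood apart in other tissues' genes. Summed over 12 genes, the liver list reached 971 CPM in the library of WT replicate 4 and 1632 in that of cKO replicate 1, against 71.8 to 139 CPM in the other 5 libraries. WT replicate 2 was the only library with abundant Xist (20326 counts, against 1 to 8 in the others). The column of WT replicate 4 carries a 7 in its header where the 6 other columns carry a 6, and the sources used here do not say what this number stands for.

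Ffar2, Ffar3 and Ffar1 lie next to each other on the minus strand of chromosome 7, and Ffar4 lies on the plus strand of chromosome 19. No other annotated gene overlaps any of them on either strand in the GENCODE M21 annotation. The windows around the annotated transcription starts are shown for Ffar2 and Ffar3 because these neighbours gave the largest and the smallest read counts of the cluster. Sequences are from RefSeq on GRCm38.p6, another build than the mm39 named by the submitters, and run 5′ to 3′ on the gene's strand from 250 bases before to 50 bases after the start. RefSeq lists 4 such windows for Ffar2, of which the farthest upstream (chr7:30823726-30824025, minus strand) and window 3 (chr7:30821143-30821442, minus strand) are printed, followed by that of Ffar3 (chr7:30856129-30856428, minus strand). Gene-level counts do not say which start was used.
Ffar2, window 1: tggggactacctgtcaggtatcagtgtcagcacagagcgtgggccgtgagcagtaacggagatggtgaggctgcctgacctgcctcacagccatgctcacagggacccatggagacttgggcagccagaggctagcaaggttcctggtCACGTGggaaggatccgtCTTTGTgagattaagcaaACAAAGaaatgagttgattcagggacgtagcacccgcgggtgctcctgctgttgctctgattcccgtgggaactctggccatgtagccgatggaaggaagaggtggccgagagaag
Ffar2, window 3: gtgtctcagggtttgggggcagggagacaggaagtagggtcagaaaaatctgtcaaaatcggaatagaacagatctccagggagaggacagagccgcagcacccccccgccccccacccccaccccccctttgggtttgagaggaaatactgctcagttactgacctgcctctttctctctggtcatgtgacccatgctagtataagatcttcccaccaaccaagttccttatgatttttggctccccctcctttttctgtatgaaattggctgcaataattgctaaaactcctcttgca
Ffar3: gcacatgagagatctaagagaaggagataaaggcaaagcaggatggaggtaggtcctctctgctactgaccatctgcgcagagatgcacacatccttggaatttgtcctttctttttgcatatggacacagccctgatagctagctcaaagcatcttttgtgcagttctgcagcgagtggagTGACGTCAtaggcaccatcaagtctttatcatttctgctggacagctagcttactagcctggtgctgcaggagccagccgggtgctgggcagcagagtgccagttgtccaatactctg

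Capitals mark matches, on either strand, to any of 6 motifs, none of which contains another. The Sox factor core was searched as ACAAAG and the site of GATA factors as GATAAG. The site of homeodomain factors was searched as TAATTA, and the cAMP response element as TGACGTCA. The last pair were an E-box written as CACGTG and the TATA box written as TATAAA. The motifs were chosen after the counts had been seen, and a match describes the letters and not a bound site. The upstream Ffar2 window held ACAAAG on 2 occasions and CACGTG once, where 18.7% and 7.15% of all 32851 windows of this length hold these motifs. Window 3 of Ffar2 held none of the 6. The Ffar3 window held TGACGTCA once, a motif found in 1.79% of all windows. The broader E-box CANNTG, which includes CACGTG and occurs in 72.3% of windows, was found once in each printed Ffar2 window and at 4 places in the Ffar3 window. The RefSeq model of Ffar1 is 903 bases long and starts at its coding sequence, so its window is not shown as a promoter.

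Ffar2 was the receptor with the most reads and the only member whose groups did not overlap. WT replicates 1 to 4 held 1257, 1828, 1505 and 1392 counts, or 67.9, 109, 87.1 and 98.4 CPM. The cKO replicates 1 to 3 held 663, 815 and 572 counts, or 39.2, 48.3 and 31.6 CPM. Each of the 4 WT libraries was thus above each of the 3 cKO libraries, and the lowest WT library, replicate 1, lay nearest to the cKO libraries. The means were 90.6 ± 17.6 CPM in WT (SD, n = 4) against 39.7 ± 8.34 in cKO (SD, n = 3). The mean cKO level was thus 43.8% of the mean WT level, and the fit put the log2 difference at −1.19 (SE 0.192, 95% interval −1.63 to −0.75). It lay between −1.36 and −1.05 when single libraries were left out. With WT replicate 4 and cKO replicate 1 both removed, the libraries high in liver genes, it was −1.14. Of all features tested, 1.43% had every cKO library below every WT library, 1.3% had every cKO library above, and 2.72% did either. A log2 fold change as low as that of Ffar2 or lower was found for 0.367%. In the whole comparison edgeR's quasi-likelihood test called 1 feature (0.00591%) at a Benjamini-Hochberg adjusted p of 0.05, a feature with only a running number and no reads in WT that was higher in cKO, and 1.38% of features had an unadjusted p under 0.05. DESeq2 called 13 features (0.0771%), 11 lower (0.0652%) and 2 higher (0.0119%), with Ffar2 among those lower. The edgeR fit with the replicate number as a block also called 13, of which 7 were lower. Since this contrast chose Ffar2, nothing is read from these shares or calls.

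Ffar3, the second receptor for short-chain acids, had few reads and differed more between embryos than between the groups. WT replicates 1 to 4 held 98, 22, 42 and 27 counts, or 5.30, 1.31, 2.43 and 1.91 CPM. The cKO replicates 1 to 3 held 84, 31 and 17 counts, or 4.97, 1.84 and 0.94 CPM. WT replicate 1 and cKO replicate 1 were the high libraries, the groups overlapped, and the highest library was 5.64 times the lowest. The coefficient of variation was 64.5% in WT and 81.9% in cKO, against 19.4% for Ffar2 in WT. The fit gave −0.10 on the log2 scale (SE 0.643, 95% interval −1.58 to 1.39). Leaving out WT replicate 1 gave 0.45, leaving out cKO replicate 3 gave 0.31 and leaving out cKO replicate 2 gave 0.08. The value was −0.99 when cKO replicate 1 was left out and −1.12 with cKO replicate 1 and WT replicate 4 both removed. With 17 to 98 reads per library, its direction followed which library was left out.

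Ffar1, the long-chain receptor of beta cells, had overlapping levels in the groups. WT replicates 1 to 4 held 158, 142, 135 and 157 counts, or 8.54, 8.47, 7.82 and 11.1 CPM. The cKO replicates 1 to 3 held 135, 207 and 185 counts, or 7.98, 12.3 and 10.2 CPM. WT replicate 4 and cKO replicate 2 were the highest libraries, and the groups overlapped. The means were 8.98 ± 1.45 CPM in WT (SD, n = 4) against 10.2 ± 2.14 in cKO (SD, n = 3), with a fitted log2 fold change of 0.18 (SE 0.190, 95% interval −0.25 to 0.61). This value was 0.02 without cKO replicate 2, 0.29 without WT replicate 4, 0.33 without cKO replicate 1 and 0.44 with WT replicate 4 removed as well.

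Ffar4, the other long-chain receptor, varied least. WT replicates 1 to 4 held 102, 135, 124 and 105 counts, or 5.51, 8.05, 7.18 and 7.42 CPM. The cKO replicates 1 to 3 held 98, 116 and 137 counts, or 5.79, 6.87 and 7.57 CPM. The lowest library of each group was its replicate 1, and the groups overlapped. The means were 7.04 ± 1.08 CPM in WT (SD, n = 4) against 6.74 ± 0.895 in cKO (SD, n = 3), a fitted log2 difference of −0.06 (SE 0.184, 95% interval −0.48 to 0.36). The interval leaves room for changes in either direction, so the data do not show that Ffar4 was equal in the groups.

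**Figure D1:**
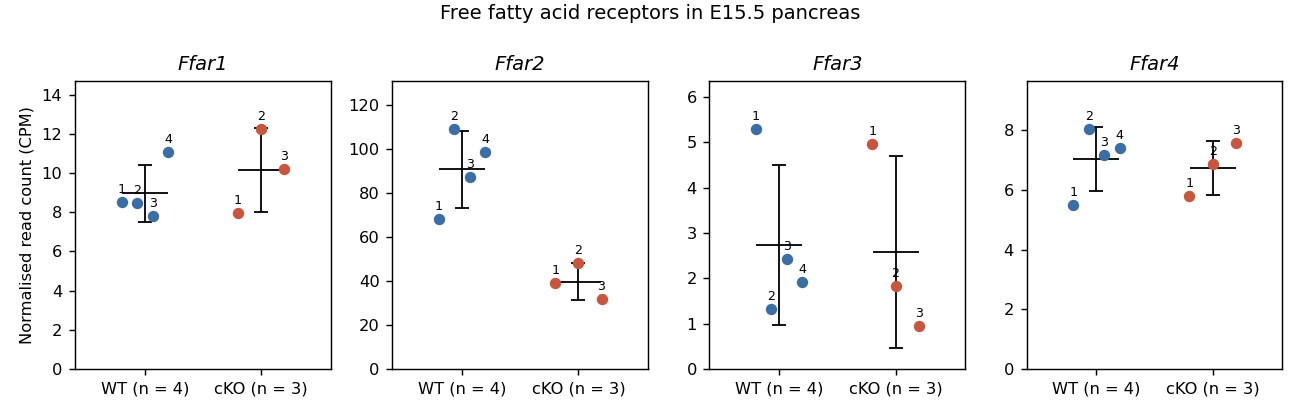
Normalised read counts (CPM, vertical axes from 0, each panel with its own scale) of the 4 receptors in WT (blue, n = 4) and cKO (red, n = 3), with 1 point per library labelled by its replicate number and black bars for the mean and SD. Ffar2 lay at 67.9 to 109 CPM in WT and 31.6 to 48.3 CPM in cKO, whereas the groups overlapped for the 3 other receptors.

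Per kilobase of exon in the GENCODE annotation, Ffar2 also had the highest level of the family. On this scale WT embryos had 32.5 ± 6.29 CPM per kb of Ffar2, 5.03 ± 0.773 of Ffar4, 2.15 ± 0.347 of Ffar1 and 1.48 ± 0.955 of Ffar3 (SD, n = 4). The cKO embryos had 14.2 ± 2.99, 4.81 ± 0.639, 2.43 ± 0.513 and 1.40 ± 1.14 CPM per kb in the same order of genes (SD, n = 3). With these models Ffar2 was above each other receptor in every library of both groups. Ffar1 and Ffar3 were neighbours in this order, and their ranges overlapped in WT (1.87 to 2.66 and 0.709 to 2.86 CPM per kb). The place of Ffar1 depends on the gene model, because its GENCODE exon spans 4175 bases and its RefSeq model 903. With the shorter model, Ffar1 lay at 8.66 to 12.3 CPM per kb in WT and 8.84 to 13.6 in cKO, above Ffar4, and in cKO it overlapped with Ffar2 (11.3 to 17.3 CPM per kb). The sources used here do not say over which model the authors counted.

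Within the chromosome 7 cluster, the shares of Ffar2 and Ffar1 did not overlap between the groups, whereas that of Ffar3 did. This scale needs no normalization between libraries, but it includes the Ffar2 counts that picked the gene, so it tests nothing. Ffar2 took 83.1%, 91.8%, 89.5% and 88.3% of the counts of Ffar1, Ffar2 and Ffar3 in WT replicates 1 to 4. It took 75.2%, 77.4% and 73.9% in cKO replicates 1 to 3. The lowest WT library, replicate 1, had an exact Clopper-Pearson 95% interval of 81.1% to 84.9%, and the highest cKO library, replicate 2, one of 74.8% to 79.9%. These intervals cover counting error only. The mean share was 88.2% ± 3.68 in WT (SD, n = 4) and 75.5% ± 1.77 in cKO (SD, n = 3). Against Ffar1 alone, Ffar2 had 7.96 to 12.9 reads per read in WT and 3.09 to 4.91 in cKO. Against Ffar3 alone it had 12.83 to 83.09 in WT and 7.893 to 33.65 in cKO, and these ranges overlapped. The shares of the cluster sum to a whole, so Ffar1 took a larger part in cKO (15.3% to 23.9%) than in WT (7.13% to 10.4%) while its own CPM overlapped between the groups. Ffar3 took 1.10% to 6.48% in WT, and 9.52%, 2.94% and 2.196% in cKO replicates 1 to 3. In both groups its highest share was in replicate 1.

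**Figure D2:**
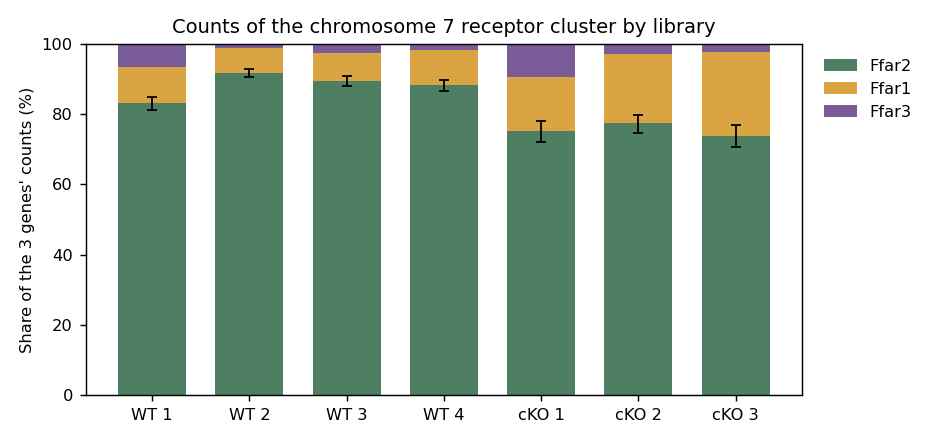
Share of the counts of Ffar1, Ffar2 and Ffar3 taken by each gene (%, vertical axis from 0 to 100) in the 7 libraries. Black bars are the exact 95% binomial intervals of the Ffar2 share, which was 83.1% to 91.8% in WT and 73.9% to 77.4% in cKO.

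The receptors share little sequence. The longest identical stretch between annotated transcripts was 65 bases, shared by Ffar1 and Ffar2, and it was 19 bases between Ffar1 and Ffar3 and at most 13 bases for the other pairs. The sources used here do not say how reads matching several places were counted.

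Genes flanking the cluster had few reads, and none had groups that did not overlap. Of the 8 nearest protein coding genes (Krtdap, Dmkn, Sbsn and Gapdhs on the Ffar2 side, Cd22, Mag, Hamp2 and Hamp on the Ffar1 side), 5 had enough counts to be tested. None of these 5 exceeded 3.51 CPM in any library. Their log2 fold changes lay between −0.33 (Sbsn, an epidermal secreted protein) and 0.44 (Dmkn, dermokine). With 8 to 28 counts per library, Dmkn was at 1.00 without WT replicate 4, 0.19 without WT replicate 1, 0.27 without cKO replicate 2 and 1.014 with the replicate block. Sbsn was at −0.21 without WT replicate 3. None of them passed edgeR's test with Benjamini-Hochberg adjustment over all features (adjusted p = 0.99992 for each). Around Ffar4, 6 of the 8 nearest protein coding genes were tested, with log2 fold changes of −0.68 to 0.68 and overlapping groups for all 6. Of all tested features, only 2.72% had groups that did not overlap and 0.00591% passed in edgeR. The lack of either among so few genes therefore does not set the neighbours of the cluster or of Ffar4 apart. Rbp4, a retinol carrier beside Ffar4, was the highest of them, with 93.1 ± 11.7 CPM in WT (SD, n = 4) against 106 ± 11.7 in cKO (SD, n = 3).

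The 8 genes whose pattern lay closest to that of Ffar2 included Pik3r5, Aqp4 and the deleted RNA itself. Likeness was measured as the root mean square difference over the 7 libraries between log2 CPM profiles, each centred on its own mean, among 12214 genes with at least 5 CPM on average. The measure includes the difference between the groups that picked Ffar2, so it describes the profiles and tests nothing. The closest was Pik3r5, the p101 regulatory subunit of phosphoinositide 3-kinase gamma, an enzyme activated by G protein beta-gamma subunits, at a difference of 0.202 on the log2 scale. Its WT replicates 1 to 4 had 7.73, 10.7, 8.45 and 10.6 CPM, in the same order of libraries as Ffar2. Its cKO replicates 1 to 3 had 3.90, 4.68 and 4.64 CPM, with replicate 3 above replicate 1, unlike Ffar2. Aqp4, a water channel, followed at 0.219. Its WT replicates 1 to 4 had 53.8, 79.8, 55.2 and 52.6 CPM, and its cKO replicates 1 to 3 had 29.3, 37.8 and 27.7 CPM, in the order of Ffar2 among the cKO libraries but not among the WT libraries. Gpr137b, a lysosomal membrane protein, came next at 0.291, with 7.67 to 12.9 CPM in WT and 4.92 to 6.28 CPM in cKO.

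The other 5 genes lay farther from Ffar2, at 0.323 to 0.407. They were the pseudogene Rps27a-ps2, the predicted genes Gm6254 and Gm43525, the deleted 2610035D17Rik itself and Reep6, an endoplasmic reticulum shaping protein with 28.2 to 36.1 CPM in WT and 21.1 to 24.2 CPM in cKO. The groups did not overlap for 6 of the 8 genes, the exceptions being Gm6254 and Gm43525, and for 2.72% of all tested features. Likeness to Ffar2 already included the difference between the groups, so nothing is read from this count. Pseudogene reads can be shared with the parent gene, so the values of Rps27a-ps2 are uncertain.

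**Figure D3:**
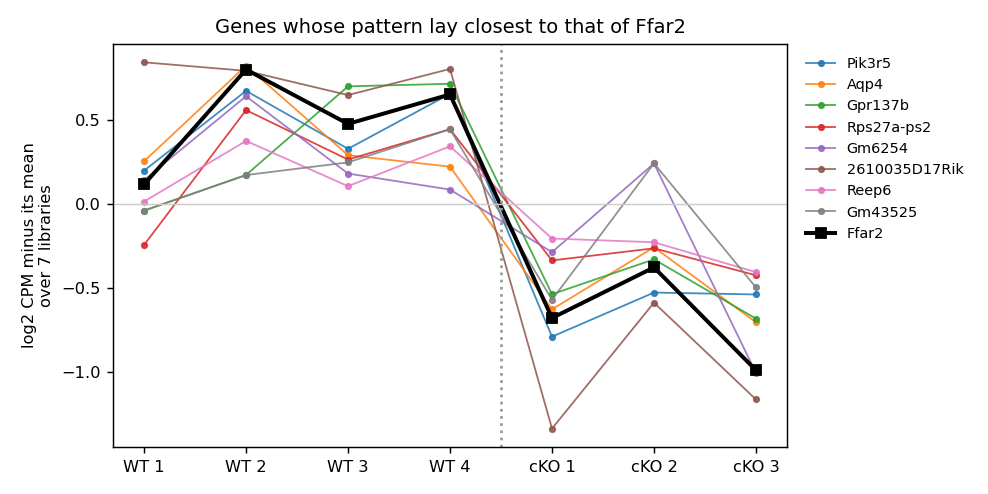
Centred log2 CPM (vertical axis, log2 units, 0 is each gene's mean over the 7 libraries) of Ffar2 (black) and the 8 genes closest to it, with the libraries in order on the horizontal axis and a dotted line between WT and cKO. Pik3r5 and Aqp4 ran closest to Ffar2, at 0.202 and 0.219 on the likeness measure.

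The part of changes in cell types in the Ffar2 difference was not tested, and levels of cell type markers are given beside it. Summed levels of 18 lists of cell type markers were compared, and for 0 of them did the WT and cKO ranges fail to overlap. Of the cells known to carry Ffar2, neutrophils were scarce: their 13 markers summed to 8.70 to 56.1 CPM in WT and 8.45 to 61.4 CPM in cKO. Of the 13, 5 had a mean under 1 CPM. Among these, Cxcr2, the chemokine receptor of mature neutrophils, and Ly6g, their surface marker, stayed under 1 CPM in every library. Of 9 neutrophil genes tested, 8 were higher in the cKO fit. Their median log2 fold change was 0.28, and −0.71 without cKO replicate 1. Among the WT libraries, the one highest in Ffar2 (replicate 2) was the lowest for this list (8.70 CPM) and the next in Ffar2 (replicate 4) was the highest (56.1 CPM). Intestinal and enteroendocrine genes summed to 30.2, 41.8, 37.1 and 45.2 CPM in WT replicates 1 to 4. In cKO replicates 1 to 3 they summed to 37.7, 44.9 and 32.5 CPM, the order of Ffar2 in cKO, and WT replicate 1 was the lowest WT library for both. The highest WT library differed, being replicate 4 for these genes and replicate 2 for Ffar2. The list of B and T lymphocyte genes, also among the 18, had the same order in cKO. Agreement in the order of so few libraries was not tested, so nothing is read from it for these genes or for neutrophils. Macrophage genes summed to 297 to 462 CPM in WT and 337 to 417 CPM in cKO, and 13 of 14 were higher in the cKO fit. Their median log2 fold change was 0.11, and 0.04 without WT replicate 1 or without WT replicate 2. Beta cell genes summed to 1277 to 1892 CPM in WT and 1495 to 1833 CPM in cKO, and 10 of 14 tested were higher in the fit, among them Ins2 (533 ± 165 CPM in WT, SD, n = 4, against 655 ± 117 in cKO, SD, n = 3). Endocrine progenitor genes summed to 606 to 634 CPM in WT and 498 to 650 CPM in cKO, and 11 of 14 were lower in the fit, with a median log2 fold change of −0.07. Multipotent progenitor and trunk genes had a median of −0.07 too, and all features tested one of −0.01. Without cKO replicate 1, the library with the endocrine progenitor sum of 498 CPM, these medians were 0.05 and 0.06, and that of the multipotent list was 0.01 without WT replicate 2. Of all features tested, 54% were below 0 in the fit. Genes of a cell type list are not independent of each other, so nothing is read from the counts of direction. Of the tested neutrophil, intestinal and enteroendocrine, macrophage, beta cell, endocrine progenitor and multipotent progenitor and trunk genes, 0 passed the adjusted threshold with edgeR or DESeq2. Of all tested features, 0.00591% passed in edgeR and 0.0771% in DESeq2, so the count of 0 does not set these genes apart. In edgeR 1 of them, the beta cell gene Ero1lb, had an unadjusted p under 0.05 (log2 fold change 0.57), as did 1.38% of all features tested. Of 9 adipocyte markers 5 had a row in the table, and only Fabp4 and Pparg, which other cells also express, had enough counts to be tested. Plin1, the adipocyte lipid droplet protein, had 0 to 5 counts per library.

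The libraries highest in Ffar3 were also those highest in sympathetic neuron genes. The 12 genes of that list, which include the noradrenaline synthesis enzymes Th and Dbh, reached sums of 1111 CPM (WT replicate 1) and 1400 CPM (cKO replicate 1) in the libraries with 5.30 and 4.97 CPM of Ffar3. They summed to 908 CPM in WT replicate 3 and to 569 in WT replicate 4, where Ffar3 was at 2.43 and 1.91 CPM. In WT replicate 2, cKO replicate 2 and cKO replicate 3 they summed to 295, 304 and 335 CPM, with 1.31, 1.84 and 0.94 CPM of Ffar3. Dbh, which converts dopamine to noradrenaline, had 163 and 151 CPM in those first 2 libraries but 1.18 to 5.03 CPM in the last 3. The part of these neuronal genes in the Ffar3 values was not tested.

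Over the 7 libraries the log2 values of Ffar3 and of this list had a Pearson's r of 0.896 (exact permutation p = 0.00496) and a Spearman's rho of 0.857 (exact permutation p = 0.0238). Without WT replicate 1 and cKO replicate 1, the libraries farthest from the median of the list, r was 0.719 over 5 libraries. The relation was one of 54 computed, between Ffar1, Ffar3 or Ffar4 and each of the 18 cell type lists, and it did not pass Benjamini-Hochberg adjustment (exact permutation p = 0.268 for r and 0.90 for rho after adjustment). Of the 54 relations, 2 had an unadjusted exact permutation p under 0.05 for r, 2 had one for rho, and 0 had an adjusted one for either. For rho the other was that of Ffar3 with the multipotent progenitor and trunk list (rho = −0.786, exact permutation p = 0.048, adjusted 0.90; r = −0.743, exact permutation p = 0.0528, adjusted 0.786), and its r without WT replicate 3 and cKO replicate 1 was −0.778. For r the other was that of Ffar4 with the sympathetic neuron list (r = −0.783, exact permutation p = 0.0423, adjusted 0.786). Its rho was −0.75 (exact permutation p = 0.0663, adjusted 0.90), and its r without WT replicate 1 and cKO replicate 1 was −0.288. Relations within a group, of 4 or 3 libraries, were not computed.

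The genes closest to Ffar3 by the same likeness measure, a ranking added after its values were seen, were Mapk10, Tspan17, Fsd1, Svop, Rps6kl1, Mgat5b, Elavl4 and Gfra3, at 0.274 to 0.338 on the log2 scale. Elavl4 is a neuronal RNA-binding protein, Mapk10 a neuronal JNK kinase, and Gfra3 the receptor for artemin, a factor for sympathetic neurons. In WT replicate 1 and cKO replicate 1 Elavl4 stood at 19.5 and 19.0 CPM, and the other 5 libraries gave 4.29 to 13.0.

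**Figure D4:**
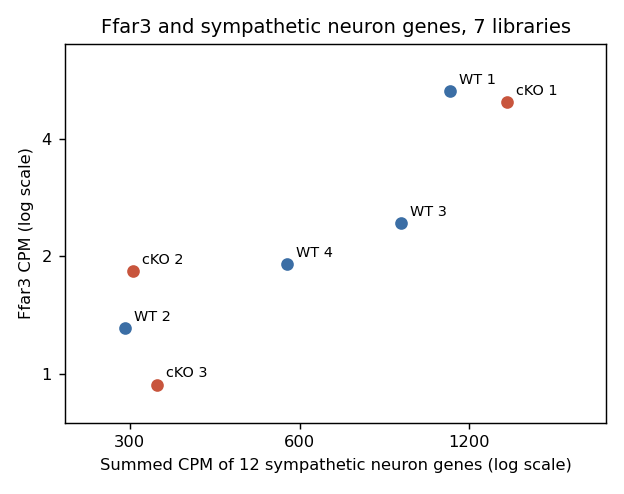
Ffar3 (CPM, vertical axis) against the summed CPM of 12 sympathetic neuron genes (horizontal axis), both on log scales, with 1 point per library (WT blue, cKO red). WT replicate 1 and cKO replicate 1 lie at the upper right with 5.30 and 4.97 CPM of Ffar3, and r was 0.896 over the 7 libraries.

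For Ffar1, the receptor of beta cells, the levels and the beta cell list gave r = 0.609 (exact permutation p = 0.136, adjusted 0.816) and rho = 0.571 (exact permutation p = 0.20, adjusted 0.90) over the 7 libraries. Without WT replicate 4 and cKO replicate 1, which lay farthest from the median of the beta cell list, r was 0.972 over 5 libraries. The same libraries lay farthest for other lists too. Without them r with Ffar1 was 0.837 for the acinar, 0.752 for the macrophage and 0.692 for the duct list. It was 0.451 for the liver, 0.387 for the neutrophil and 0.141 for the endocrine progenitor list. In cKO replicate 1 the beta cell genes summed to 1833 CPM while Ffar1 was at 7.98 CPM, the second lowest of all libraries.

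Among genes through which these receptors act, and genes that handle their ligands, none was called. Of 100 genes in 6 lists, 85 had enough counts to be tested, and 0 passed an adjusted p of 0.05 in either edgeR or DESeq2 after Benjamini-Hochberg adjustment. Of all tested features, 0.00591% passed in edgeR and 0.0771% in DESeq2, so the count of 0 does not set these genes apart. In edgeR 1 of the 85 had an unadjusted p under 0.05, as did 1.38% of all tested features. Groups did not overlap for 1 of the 85, with cKO higher, and for 2.72% of all tested features. The median log2 fold change of the 85 was −0.02, 0 were as low as Ffar2, and 46 of 85 were below 0, where 54% of all tested features were.

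Among the G protein alpha subunits, 0 of 13 passed, with a median log2 fold change of 0.01 and a range of −0.12 to 0.19. Gnai2, the main inhibitory subunit, had 349 ± 18.4 CPM in WT (SD, n = 4) against 360 ± 7.45 in cKO (SD, n = 3), and Gnai3 had 261 ± 13.1 against 256 ± 14.8 CPM. Gnaq and Gna11, the subunits that activate phospholipase C, had 103 ± 6.86 and 146 ± 8.24 CPM in WT and 98.1 ± 9.87 and 148 ± 18.2 CPM in cKO. Of the arrestins and receptor kinases, which end receptor signalling, 0 of 7 passed (median −0.01). Arrb1 had 44.0 ± 5.21 CPM in WT against 43.8 ± 7.61 in cKO, and Grk2 had 108 ± 1.32 against 109 ± 5.31 CPM. Of the phospholipase C beta and adenylyl cyclase genes, 0 of 13 passed, 11 of 13 were below 0 and the median was −0.14. That median was −0.01 without cKO replicate 1, the library with the lowest summed level (406 CPM, against 479 to 516 CPM in the other 6).

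Other receptors for metabolites and fatty acid derivatives had groups that overlapped for each gene tested. Of 27 listed, 18 were tested and 0 passed, with 9 above and 9 below 0 (median −0.01). The highest were the sphingosine 1-phosphate receptors S1pr3 (60.3 ± 7.43 CPM in WT against 59.7 ± 8.93 in cKO) and S1pr2 (56.7 ± 1.39 against 57.6 ± 4.32 CPM). Hcar1, the lactate receptor, had 3.66 ± 1.28 CPM in WT against 3.39 ± 0.481 in cKO, and Olfr78, an olfactory-type receptor for short-chain acids, had 1.21 ± 0.721 against 1.23 ± 0.472 CPM. Gpr84, a receptor for medium-chain acids, and Hcar2, the receptor for butyrate and ketone bodies, had 0 to 7 counts per library and were not tested.

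Genes for the uptake and use of short-chain acids gave 0 of 13 past the threshold and a median of 0.00. Bsg, the chaperone of the monocarboxylate transporters, had 692 ± 71.1 CPM in WT against 713 ± 64.6 in cKO, and the transporter Slc16a1 had 49.3 ± 4.22 against 51.2 ± 7.56 CPM. Acss2 and Acss1, which turn acetate into acetyl-CoA, had 10.8 ± 1.71 and 10.1 ± 0.654 CPM in WT and 10.1 ± 3.92 and 10.2 ± 2.49 CPM in cKO. Genes for long-chain fatty acid uptake and activation gave 0 of 21 past the threshold and a median of 0.01. Fabp5, a fatty acid binding protein, had 218 ± 25.5 CPM in WT against 259 ± 81.2 in cKO, and the lipase gene Mgll had 139 ± 21.1 against 145 ± 12.1 CPM.

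**Figure D5:**
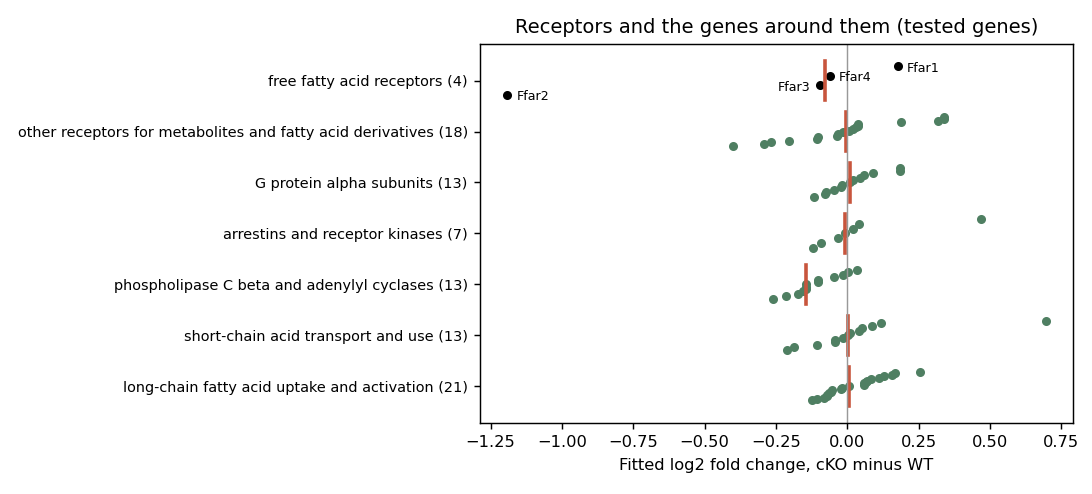
Fitted log2 fold change (cKO minus WT, horizontal axis) of the 4 receptors (black) and of the tested genes of 6 lists (green), 1 point per gene, with the list's median as a red bar and the number of tested genes in brackets. Ffar2 lies at −1.19, and 0 of the 85 genes of the other lists lie as low.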

How the data were processed

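Polyadenylated RNA of the pancreas was sequenced from 4 WT and 3 cKO embryos after unstranded library preparation, per the labels' protocols. The values are read counts, which the authors deposited as whole numbers without normalization in 1 table. HISAT2, StringTie, featureCounts and mm39 are named without roles or versions, per the submitters' processing notes. No column of per-sample values was unused (0 columns). Of the 27138 features, 315 carry only a running number and took 0.206% of the counts. Symbols were found for 26764 identifiers.

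Counts were fitted with edgeR 4.0.16 (R 4.3.3; filterByExpr, TMM, robust quasi-likelihood, group as the only term), and Benjamini-Hochberg adjustment covered all 16910 features tested. DESeq2 1.42.0 and limma-voom (limma 3.58.1) were alternatives. Log2 CPM used a prior count of 2. Tested on simulated counts of 16910 genes for cKO against WT, the fit found 56.5% of the 2-fold and 86% of the 4-fold changes put in. Of its calls, 7.45% were false. Recovery may be lower in the real data, where few features were called. There the deleted 2610035D17Rik, at a log2 fold change of −1.76, was not called by edgeR (quasi-likelihood test, adjusted p = 0.0902), though DESeq2 called it. No library was a repeat of another, since chi-square over its degrees of freedom was 11.1 to 50.8 for every pair. Deviations from the group means had correlations of 0.372, 0.527 and 0.102 between libraries with the same replicate number, for numbers 1 to 3. Unmatched pairs reached up to 0.385 (WT 2 with cKO 3), and WT 3 went more with cKO 1 (0.156) than with cKO 3. Number 3 thus did not stand out as a pair. Any pairing is taken from the data only, since the labels call each replicate an independent animal.

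The members and the 27 lists were chosen with earlier results of these data known. Of 334 list entries, 326 had a row and 297 were tested. Named genes are the members, the 8 most like Ffar2, the 4 protein coding neighbours on each side, members of each list by level (the 2 highest) or a call, and 2610035D17Rik. Other list members are named where they are defining markers or signalling genes, chosen after their values were seen. GENCODE M21 on GRCm38 gave lengths and neighbours. One list gene is not reported here.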

Additional observations from a re-analysis of the deposited data

Results flagged for a closer look

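In the WT group, 62 values were tested for a library far from the others with Dixon's gap test, at its critical value for 4 libraries. Chance flags about 1 in 20 such groups, and 5 values were flagged. WT replicate 2 was the highest library for Aqp4, at 79.8 CPM against 52.6 to 55.2 CPM in the other 3, and for Gm6254, at 16.4 CPM against 11.2 to 11.9 CPM. Both genes were named for their likeness to Ffar2, which was also highest in WT replicate 2. WT replicate 4 was far above the other 3 WT libraries in the summed level of the acinar list (88620 CPM against 45010 to 45560 CPM), of the neutrophil list (56.1 CPM against 8.71 to 15.3 CPM) and of the liver list (971 CPM against 71.8 to 129 CPM). Ffar2 in that library (98.4 CPM) lay within the range of the other WT libraries. Ffar1 was at its highest WT value there (11.1 CPM), and the part of these lists in that value was not tested.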

How the results depend on the processing

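The Ffar2 difference kept its direction under all 16 alternatives, at −1.36 to −1.05. That of Ffar4 ranged from −0.16 to 0.06, so its sign changed, and both moved by less than the spread between replicates. With the replicate block the log2 fold changes of Ffar1, Ffar2, Ffar3 and Ffar4 were 0.28, −1.14, −0.30 and −0.03, and no pathway gene was called. Without both WT replicate 4 and cKO replicate 1, Ffar1 moved to 0.44 and Ffar3 to −1.12. Leaving out single libraries gave 0.019 to 0.33 for Ffar1 and −0.99 to 0.45 for Ffar3. The fall of the Ffar2 share of the cluster, −12.7 percentage points, was −14.4 to −11.5 without single libraries and −15.8 over all 4 receptors, where Ffar4 joins the denominator. The count of features called in the whole comparison was 1 with edgeR (234 at an unadjusted p under 0.05) and 1 with limma-voom. It was 13 with DESeq2, 13 with the replicate block, 4 with no filter on low counts, and 0 to 3 without single libraries. A count of 0 came from edgeR with size factors of DESeq2 (234 at an unadjusted p under 0.05), library totals only (226), a 1 CPM minimum in 3 libraries (201) and dispersions that were not robust (257). The cause of these shifts was not tested. Pathway genes called were 0 under every alternative. Of 751 values of list medians and other genes under the alternatives, 734 moved by less than the spread between replicates. Ffar3 had the fewest counts of the receptors, 17 to 98 per library.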
